A study of Mus musculus with 6 samples.

Results

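The SR splicing factors and the hnRNP proteins were described in the aging mouse cortex as 31 genes, chosen by name alone from the 55421 genes of the count tables: 11 whose symbol is Srsf followed by a number (Srsf1 to Srsf7 and Srsf9 to Srsf12) and 20 whose symbol starts with Hnrnp. Pseudogene rows of the same names were left out. The rule itself uses no measured value, but the families were chosen with earlier results of these data known. The mRNA of the cerebral cortex was sequenced in 6 wild-type male C57BL/6J mice. The younger group was 6 months old (mice 10, 11 and 17, n = 3) and the older 24 months old (mice 2, 4 and 5, n = 3). All were anesthetized with isoflurane before cervical dislocation, and animals with visible tumors had been discarded. Each library came from 1 mouse and was made from a small amount of total RNA with a low-input kit, and the comparison asks how the cortical transcriptome differs with normal age.

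SR proteins carry RNA recognition motifs and a tail rich in serine and arginine. They bind mostly exonic enhancers, help the spliceosome to recognise the exon, and depend on phosphorylation of the tail by SRPK and CLK kinases. The hnRNP proteins coat nascent transcripts, often silence exons that SR proteins favor, and also act in mRNA export, transport and decay. In neurons, members such as hnRNP A2/B1, hnRNP R and hnRNP K are known for their part in the transport and local use of mRNA. Many genes of both groups limit their own level through unproductive isoforms that carry a premature stop and are degraded, and gene-level counts do not separate such isoforms from productive ones.

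Totals ranged from 29495379 to 36494240 counts per mouse, and each member had between 352 and 24466 counts in each mouse, so few counts limited no member. The 24-month libraries held counts on 40208 to 43561 genes and the 6-month libraries on 33974 to 35651. Scaling factors between the libraries (TMM, the trimmed mean of M-values of edgeR) were 1.04 to 1.10 at 24 months and 0.921 to 0.946 at 6 months. Under these factors log2 fold changes had a median of 0.15 across the 32905 genes tested but of -0.20 across the 10028 genes with a mean CPM (counts scaled to the library size) of at least 10. All 31 members belonged to the latter class, and their changes are given beside it. In bulk tissue, fewer cells of a type and less RNA per cell cannot be told apart. Levels are given in TPM, which scales the counts by gene length and library, always in the order of mice 10, 11 and 17 and then 2, 4 and 5.

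The upstream sequences of 4 members are shown because the results turn on them: Srsf7 and Hnrnpa2b1 lost the largest share of the summed level of the members within their groups among those whose ages did not overlap, Srsf2 gained the largest, and Hnrnpab varied most between mice of 6 months. Each run is the 250 bases before the gene start of RefSeq on GRCm38.p6, read 5′ to 3′ on the strand of the gene. Capitals mark the letters of CCAAT, of GGGCGG (the core of a GC box) or of CCGGAAG (an ETS motif), searched on both strands, with overlapping matches joined.
Srsf7, chr17:80207306-80207555, minus strand: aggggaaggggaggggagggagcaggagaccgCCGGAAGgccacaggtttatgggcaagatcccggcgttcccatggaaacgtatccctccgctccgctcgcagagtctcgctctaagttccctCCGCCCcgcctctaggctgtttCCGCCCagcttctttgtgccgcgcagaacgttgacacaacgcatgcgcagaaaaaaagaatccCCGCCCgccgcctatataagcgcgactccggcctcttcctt
Hnrnpa2b1, chr6:51469895-51470144, minus strand: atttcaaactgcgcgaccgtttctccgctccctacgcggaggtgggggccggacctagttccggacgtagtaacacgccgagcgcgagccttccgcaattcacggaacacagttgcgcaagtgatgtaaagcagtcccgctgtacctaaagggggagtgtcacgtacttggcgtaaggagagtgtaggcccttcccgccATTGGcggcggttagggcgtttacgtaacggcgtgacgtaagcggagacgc
Srsf2, chr11:116853095-116853344, minus strand: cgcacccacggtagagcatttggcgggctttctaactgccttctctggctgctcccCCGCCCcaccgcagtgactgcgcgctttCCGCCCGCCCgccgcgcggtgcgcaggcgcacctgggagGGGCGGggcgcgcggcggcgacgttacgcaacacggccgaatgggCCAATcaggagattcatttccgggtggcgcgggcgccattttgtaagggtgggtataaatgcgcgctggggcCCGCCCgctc
Hnrnpab, chr11:51606882-51607131, minus strand: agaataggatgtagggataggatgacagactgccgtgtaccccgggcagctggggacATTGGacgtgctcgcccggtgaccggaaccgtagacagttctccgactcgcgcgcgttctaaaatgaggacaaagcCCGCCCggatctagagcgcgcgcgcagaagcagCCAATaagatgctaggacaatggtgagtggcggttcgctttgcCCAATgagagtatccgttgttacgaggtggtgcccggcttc

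Upstream windows were found for 29 members, and Hnrnpll and Hnrnpul2 had no entry. The letters GGGCGG stood in 23 of the 29 windows (79.3%), against 33.0% of the 27025 genes with a window of the same length. CCAAT stood in 15 (51.7%, against 34.5%) and CCGGAAG in 6 (20.7%, against 7.07%). The median member window held 23 CpG dinucleotides, against 6 over all genes. The background of these motif shares and of the CpG count includes many non-coding genes. No class matched to the members by level or CpG content was compared. Of the windows shown, those of Srsf2 and Hnrnpab held both CCAAT and GGGCGG, that of Srsf7 held GGGCGG and CCGGAAG, and that of Hnrnpa2b1 held CCAAT only. Such matches describe the letters of the window and were not tested for binding.

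Most splicing factor mRNAs were lower in 24-month cortices, by about as much as other well expressed genes. The fitted log2 fold change was below 0 for 23 of the 31 members, for 20 with scaling by library totals or with genes under 1 CPM left out, and for 19 with scaling on the genes of at least 10 CPM. With TMM over all genes tested, it was below 0 for 8431 of the 10028 genes of at least 10 CPM and for 13674 of all 32905. The member median was then -0.25, with -0.22 over the SR genes and -0.27 over the hnRNP genes. With library totals the member median was -0.055, and with scaling on the genes of at least 10 CPM it was -0.036. In edgeR's quasi-likelihood test, 0 members passed an FDR of 1%, and 0.0% of all 32905 genes did. The study did report differentially expressed genes at this threshold, using edgeR with its own filter and a test it does not name. The likelihood ratio and exact tests of edgeR and the Wald test of DESeq2 each called 1 member at 1%, Srsf7. At an unadjusted p under 0.05 they had 13, 13 and 15 members lower. The shares of all genes called by these other tests are not given here. At an FDR of 10%, 12 members were lower (4 SR and 8 hnRNP genes, 38.7%) and 0 were higher. The background of such calls was 8.33% lower and 10.0% higher over all genes tested, but 25.4% lower and 0.548% higher over the genes of at least 10 CPM.

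At an unadjusted p under 0.05, 17 members were lower (54.8%) and 0 higher, against 13.1% lower and 17.6% higher over all genes and 38.5% lower and 1.04% higher over the well expressed class. With library totals there were 4 lower and 5 higher, and with scaling on the genes of at least 10 CPM 2 lower and 6 higher. Under these scalings the well expressed class had 8.05% lower and 5.94% higher, and 6.41% lower and 7.10% higher. On TMM-scaled CPM, all 24-month mice lay below all 6-month mice for 17 members (5 SR and 12 hnRNP genes) and above them for 0. Over all genes these shares were 16.3% below and 20.0% above, and over the well expressed class 45.7% and 1.42%. The other scalings gave 8 members below and 4 above, and 6 below and 4 above, against 13.1% and 8.90%, and 11.0% and 10.6%, of the class. On TPM the ages were apart for fewer members, 12 lower (4 SR and 8 hnRNP genes) and 2 higher (Hnrnpa0 and Hnrnpd), against a background of 8.65% and 25.8% over all genes and 24.5% and 4.4% over the class.

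The number of calls at 10% FDR changed with the scaling and when a mouse was left out. With scaling on the genes of at least 10 CPM, an alternative chosen after the data were seen, Srsf7 alone remained lower (adjusted p = 0.0894) and Hnrnpd and Srsf2 were called higher (adjusted p = 0.0764 and 0.0929). With library totals alone, 1 member was called lower (Srsf7, adjusted p = 0.0819) and 1 higher (Hnrnpd, adjusted p = 0.0868). The class then had 2.41% lower and 2.98% higher with the former scaling, and 2.78% and 2.32% with the latter. With 1 mouse left out, 0 members were called without the 6-month mouse 10 or 11 or the 24-month mouse 2 or 4. Without the 6-month mouse 17, 6 were lower and 2 higher (Hnrnpl and Srsf1), and without the 24-month mouse 5, 17 were lower. All 12 members called with every mouse kept a fitted change below 0 in each of these fits, which hold fewer mice. They were picked for low values in these same mice, so this sign was nearly fixed in advance and is no independent check. The share of all genes called with a mouse left out is not given here, so these counts have no background. The splicing lists below also had 0 calls without mouse 10, 11, 2 or 4. A change of scaling shifts all genes nearly alike and so leaves the place of the members among other genes as it is. Their median lay 0.04 to 0.05 below that of the well expressed class on the log2 scale across scalings and filters, and 20 of 31 members (8 of 11 SR and 12 of 20 hnRNP genes) lay below the class median. With 1 mouse left out, the median lay 0.02 to 0.08 below and 16 to 20 members did.

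**Figure D1:**
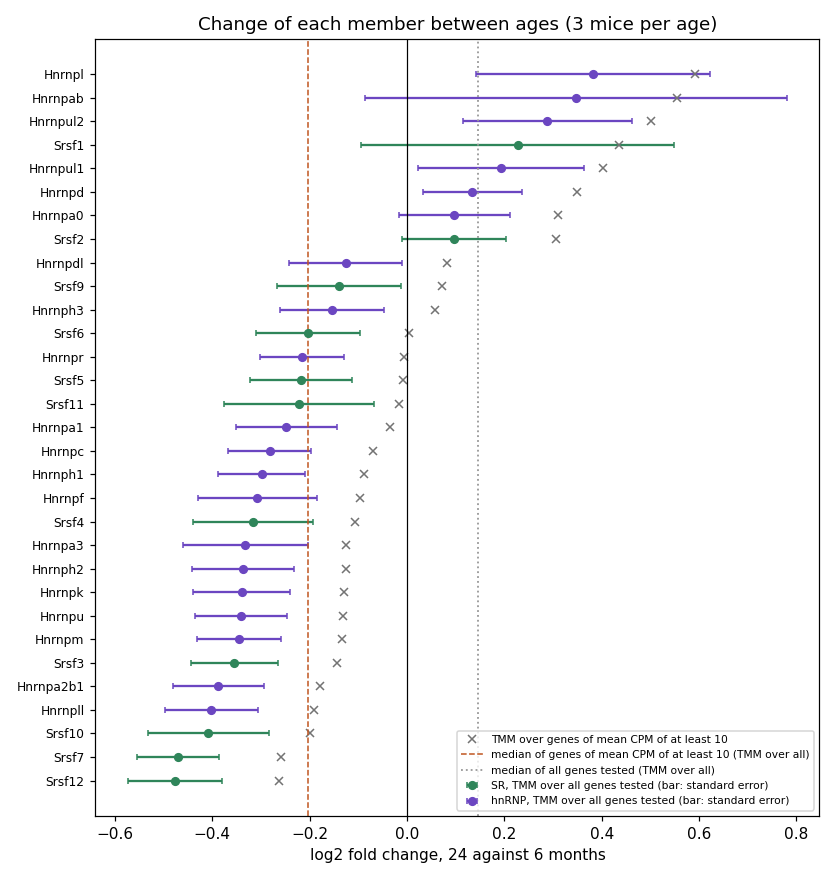
Log2 fold change of each member, 24 against 6 months, with its standard error (3 mice per age, TMM over all genes tested). Crosses give the change with scaling on the genes of at least 10 CPM. Dashed and dotted vertical lines are the medians of those genes (-0.20) and of all genes tested (0.15). Srsf12 and Srsf7 lie lowest, and 8 members lie above 0.

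Among the SR proteins, Srsf7, which acts in splicing, 3′ end choice and mRNA export, had the smallest p of all members. It stood at 258, 269.5 and 246 TPM at 6 months and 203, 193 and 208 TPM at 24 months. All 24-month mice lay below all 6-month mice, with little spread within an age, and the fitted level was 27.8% lower (log2 fold change -0.47, SE 0.085, adjusted p = 0.0518). Srsf12, a relative of Srsf10, stood at 64.6, 58.8 and 59.1 TPM at 6 months and 49.4, 47.8 and 44.7 TPM at 24 months. Its ages did not overlap either, and its fitted change was like that of Srsf7 (log2 fold change -0.48, SE 0.10, adjusted p = 0.0518). With each mouse left out in turn the log2 fold change lay between -0.50 and -0.40 for Srsf7 and between -0.50 and -0.43 for Srsf12. It was smaller under other scalings: -0.28 for each gene with library totals, and -0.26 for each with scaling on the genes of at least 10 CPM.

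Srsf3, the smallest SR protein and a close relative of Srsf7, was measured at 32.6, 36.5 and 33.9 TPM at 6 months and 28.3, 28.8 and 30.03 TPM at 24 months. The 24-month mice were the lower ones without overlap (log2 fold change -0.36, SE 0.089, adjusted p = 0.0570). Srsf10, whose protein turns into a splicing repressor once dephosphorylated, was called lower at 10% FDR as well (log2 fold change -0.41, SE 0.12, adjusted p = 0.0740), but its TPM of 45.6, 36.2 and 39.9 at 6 months and 30.1, 31.3 and 37.8 at 24 months overlapped, with the 24-month mouse 5 inside the younger range. Srsf4 had the lowest SR level, 16.2, 18.3 and 16.6 TPM at 6 months and 12.9, 15.6 and 15.9 TPM at 24 months. Its ages were apart and its log2 fold change was -0.32 with an adjusted p of 0.123 in the quasi-likelihood test. An opposite-strand transcript shares 43.0% of the exonic bases of Srsf4. It had 30 to 77 counts in a mouse, and the counting is not stated to use strand.

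The most abundant SR mRNAs differed in behavior. Srsf5, known as a gene induced by growth signals, had 268, 236 and 267 TPM at 6 months and 215, 236 and 266 TPM at 24 months, and the ages overlapped (log2 fold change -0.22, SE 0.10, adjusted p = 0.188). Srsf2, also called SC35 and known as a marker protein of nuclear speckles, had 156, 151 and 173 TPM at 6 months and 174, 172 and 209 TPM at 24 months. Here the 24-month mice 2 and 5 lay above every 6-month mouse and mouse 4 within their range, and the fitted change was not resolved (log2 fold change 0.10, SE 0.11, adjusted p = 0.563). Srsf2 shares 15.6% of its exonic bases with the opposite-strand gene Mettl23. Srsf11 had 96.9, 84.2 and 96.7 TPM at 6 months and 71.5, 76.3 and 109.9 TPM at 24 months, and the 24-month mice spread from below to above the younger ones (log2 fold change -0.22, SE 0.15, adjusted p = 0.350). Srsf6 and Srsf9 had log2 fold changes of -0.20 and -0.14 with adjusted p of 0.219 and 0.475 in the same test.

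**Figure D2:**
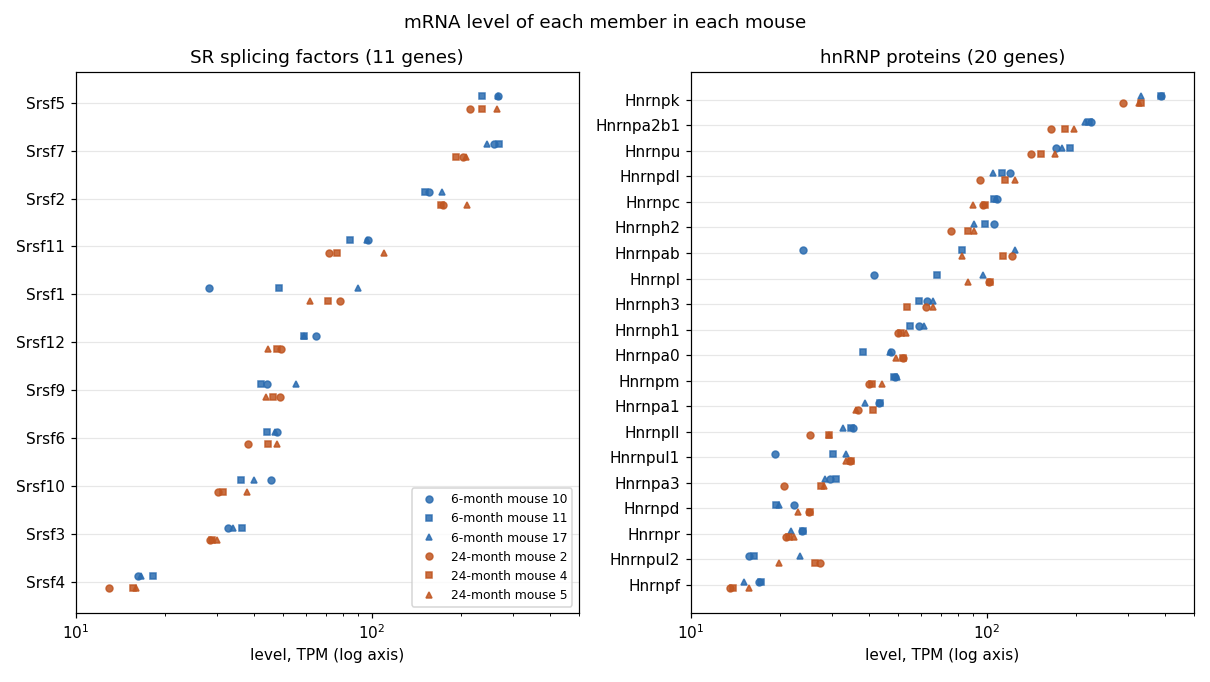
TPM of each member in each mouse on a log axis, SR genes on the left and hnRNP genes on the right, blue for 6 months and orange for 24 months. Hnrnpk is the most abundant member (289 to 389.6 TPM) and Hnrnpf and Srsf4 the least (12.9 to 18.3 TPM). The wide blue ranges of Hnrnpab, Srsf1 and Hnrnpl stand out.

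Among the hnRNP genes the lower levels were spread over several structural families. Hnrnpa2b1, whose protein carries mRNAs along dendrites and myelin-forming processes, stood at 225, 221 and 215 TPM at 6 months and 165, 184 and 198 TPM at 24 months. Every older mouse was below every younger one, and the fitted level was 23.6% lower (log2 fold change -0.39, SE 0.093, adjusted p = 0.0553). The log2 fold change was -0.20 with library totals and -0.18 with scaling on the genes of at least 10 CPM, and the other called members were smaller by a like amount under these scalings. Hnrnpll, a splicing regulator best known from activated lymphocytes, stood at 35.3, 34.6 and 32.7 TPM at 6 months and 25.3, 29.4 and 29.3 TPM at 24 months, again without overlap (log2 fold change -0.40, SE 0.10, adjusted p = 0.0553). Its paralog Hnrnpl, a reader of CA repeats, is described with the variable members below.

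Hnrnpm, a splicing factor that binds GU-rich RNA, had 49.03, 48.4 and 49.6 TPM at 6 months and 39.9, 41.1 and 44.3 TPM at 24 months. The 6-month mice were nearly equal and all above the older mice (log2 fold change -0.34, SE 0.087, adjusted p = 0.0574). Hnrnpm shares 14.7% of its exonic bases with Marchf2 on the same strand. Hnrnpu, a nuclear scaffold protein that binds chromatin and long non-coding RNA, had 171, 191 and 180.0 TPM at 6 months and 141, 152 and 169.6 TPM at 24 months. The gap between the ages was narrow, between mouse 5 and mouse 10 (log2 fold change -0.34, SE 0.10, adjusted p = 0.0636). Hnrnpk, a binder of C-rich RNA with KH domains and the most abundant member, had 389.6, 388 and 333 TPM at 6 months and 289, 333 and 327 TPM at 24 months. Its ages met on the TPM scale, where mice 17, 4 and 5 were close together, and the adjusted p was 0.0692 (20.95% lower, log2 fold change -0.34, SE 0.10).

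The other hnRNP genes called lower at 10% FDR were Hnrnph1 and Hnrnph2, readers of G-rich runs, and Hnrnpc, a binder of U-rich tracts. Their log2 fold changes were -0.30, -0.34 and -0.28, with adjusted p of 0.0714, 0.0771 and 0.0723 in the quasi-likelihood test. Hnrnpa1, the best studied antagonist of Srsf1, had a log2 fold change of -0.25 (adjusted p = 0.143). Hnrnpa3, Hnrnpf and Hnrnpr ranged from -0.33 to -0.22, with adjusted p of 0.119 to 0.128. Hnrnpf was the least abundant member at 17.00, 17.3 and 15.1 TPM at 6 months and 13.6, 13.9 and 15.7 TPM at 24 months, and mouse 5 lay above mouse 17. Hnrnpdl, a relative of Hnrnpd, was among the most abundant members at 120.0, 113 and 105 TPM at 6 months and 94.7, 115 and 125 TPM at 24 months. Its ages overlapped widely (log2 fold change -0.13, SE 0.12, adjusted p = 0.480), and its direction turned with the scaling, as did that of Hnrnph3 (-0.15), Srsf6 and Srsf9.

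The 5 members with the widest ranges between 6-month mice are described together, and were singled out after their values were seen. Hnrnpab, a relative of Hnrnpd, stood at 23.96, 82.2 and 125 TPM in the 6-month mice 10, 11 and 17 and at 121, 113 and 82.5 TPM at 24 months. Mouse 10 lay far below the rest and mouse 17 above every older mouse. On TMM-scaled CPM the highest 6-month mouse was 5.16-fold above the lowest, a range wider than in 99.7% of 9781 well expressed genes with a known GC content, while the 24-month range was 1.47-fold. Srsf1, the founding SR protein, stood at 28.1, 48.4 and 90.1 TPM at 6 months and 77.8, 71.4 and 61.7 TPM at 24 months. Its 6-month range was 3.18-fold and its 24-month range 1.26-fold.

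Hnrnpl stood at 41.5, 67.9 and 97.2 TPM at 6 months and 102, 103 and 86.5 TPM at 24 months, with mouse 10 lowest, a 2.32-fold range at 6 months and a 1.19-fold range at 24 months. Hnrnpul1, related to Hnrnpu, stood at 19.2, 30.3 and 33.5 TPM at 6 months and 34.4, 34.8 and 33.4 TPM at 24 months, again with mouse 10 lowest (1.73-fold against 1.04-fold). Hnrnpul2 stood at 15.8, 16.3 and 23.4 TPM at 6 months and 27.2, 26.3 and 19.8 TPM at 24 months, with mice 10 and 11 both low and the ages overlapping (1.47-fold against 1.38-fold). In each of these 5 genes mouse 10 was the lowest and mouse 17 the highest of the 6-month mice. With all 6 mice none was called between the ages: log2 fold changes were 0.35, 0.23, 0.38, 0.19 and 0.29, with adjusted p of 0.279 to 0.654 in the quasi-likelihood test. Without mouse 10 these values were -0.077, -0.085, 0.13, -0.0073 and 0.19. Without mouse 17 they were 0.88, 0.77, 0.72, 0.36 and 0.49, and Srsf1 and Hnrnpl were then called higher at 10% FDR (adjusted p = 0.0966 and 0.0949). The 5 genes were picked for their 6-month range, with mouse 10 lowest and mouse 17 highest, so the direction of these shifts follows from the choice. The share of all genes called without mouse 17 is not given here.

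The 6-month ranges of the other 26 members ran from 1.03-fold (Hnrnpm) to 1.32-fold (Srsf9) in the same libraries. The log2 ratio of mouse 17 to mouse 10 had a Pearson r of 0.30 with transcript GC content over the 31 members and of 0.25 over the 9781 genes, a description across genes that share these 2 libraries. GC content was 49.9% for Hnrnpab, 54.2% for Hnrnpl, 54.0% for Hnrnpul1 and 49.5% for Hnrnpul2 but 40.6% for Srsf1. It was highest in Srsf4, Srsf9 and Hnrnpa0 (56.8%, 56.2% and 55.4%). There the ratio of mouse 17 to mouse 10 was only 1.02, 1.24 and 0.98. Exons of Hnrnpab share 29.1% of their bases with Phykpl on the opposite strand, whose own counts were 194, 249 and 229 in the younger group and 209, 259 and 267 in the older. The part of either in the spread was not tested.

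**Figure D3:**
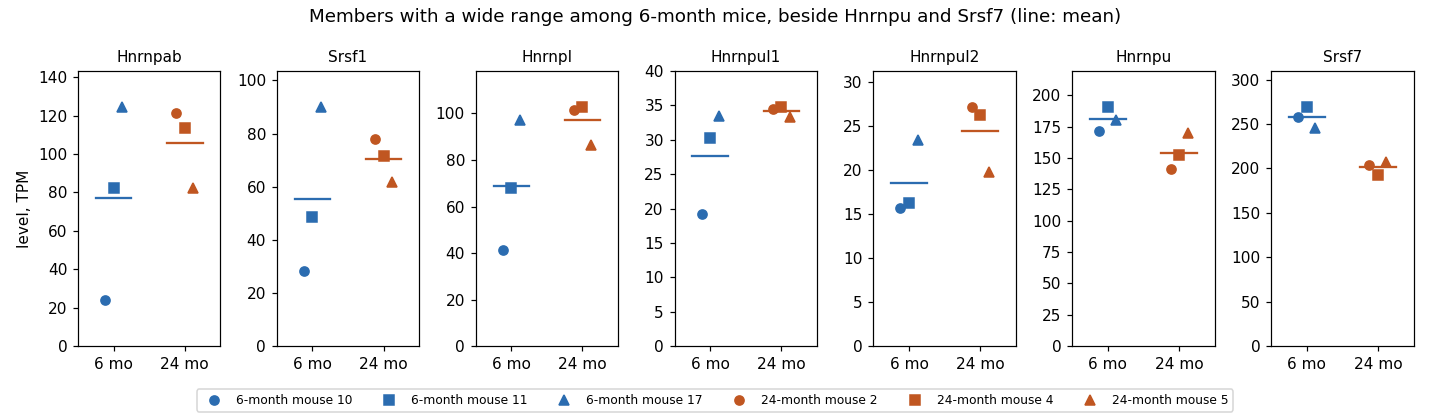
TPM of the 5 variable members and, for comparison, of Hnrnpu and Srsf7, each axis starting at 0. Symbols are mice and lines are means of 3. In the 5 variable members the 6-month mouse 10 is lowest and mouse 17 highest of its age, whereas the 6-month mice of Srsf7 lie within 1.09-fold of each other on the CPM scale.

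The composition of the pool was followed by dividing each member by the summed TPM of all 31, which does not depend on the scaling between libraries. The sum was 2669, 2709 and 2814 TPM at 6 months and 2443, 2567 and 2666 TPM at 24 months. The ages were just apart, by less than the spread within an age. By share, 7 members were lower at 24 months without overlap, 4 were higher and 20 overlapped. The same ratio was lower for 3.19% of all genes tested and higher for 30.3%, and over the well expressed class for 8.24% and 9.79%. Shares of a fixed sum cannot all move one way, and each gap has an exact permutation p of 0.1, two-sided, the smallest that 3 mice against 3 allow.

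Srsf2 gained most among those without overlap, from 5.86 ± 0.29% at 6 months to 7.23 ± 0.58% at 24 months (SD, n = 3). Srsf7 lost most, from 9.45 ± 0.64% at 6 months to 7.88 ± 0.41% at 24 months, and so the mRNA of Srsf2 came close to that of Srsf7 in the older mice. Hnrnpa2b1 went from 8.08 ± 0.41% at 6 months to 7.11 ± 0.34% at 24 months and Hnrnpu from 6.62 ± 0.37% at 6 months to 6.02 ± 0.30% at 24 months. The other lower shares were those of Srsf12, Hnrnpm, Hnrnpll and Srsf3, each a small part of the pool. Hnrnpa0, which binds AU-rich mRNA downstream of stress kinases, went from 1.62 ± 0.19% at 6 months to 2.00 ± 0.15% at 24 months. Hnrnpd, also called AUF1 and known for its role in mRNA decay, went from 0.754 ± 0.073% at 6 months to 0.957 ± 0.085% at 24 months, and Hnrnpul1 from 1.01 ± 0.25% at 6 months to 1.34 ± 0.081% at 24 months.

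Hnrnpa0 and Hnrnpd were also the members whose TPM did not overlap upward, and their values per mouse were picked out after they were seen. Hnrnpd stood at 22.4, 19.4 and 19.9 TPM at 6 months and 25.04, 25.3 and 22.98 TPM at 24 months and Hnrnpa0 at 47.5, 38.1 and 47.04 TPM at 6 months and 52.2, 52.00 and 49.3 TPM at 24 months. With TMM over all genes tested, neither was called (log2 fold change 0.13, SE 0.10, adjusted p = 0.388, and log2 fold change 0.10, SE 0.11, adjusted p = 0.587). Hnrnpk held the largest share, 13.6% at 6 months and 12.4% at 24 months, with overlap. On TMM-scaled CPM in place of TPM, the same ratio was lower without overlap for 6 members and higher for 4.

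**Figure D4:**
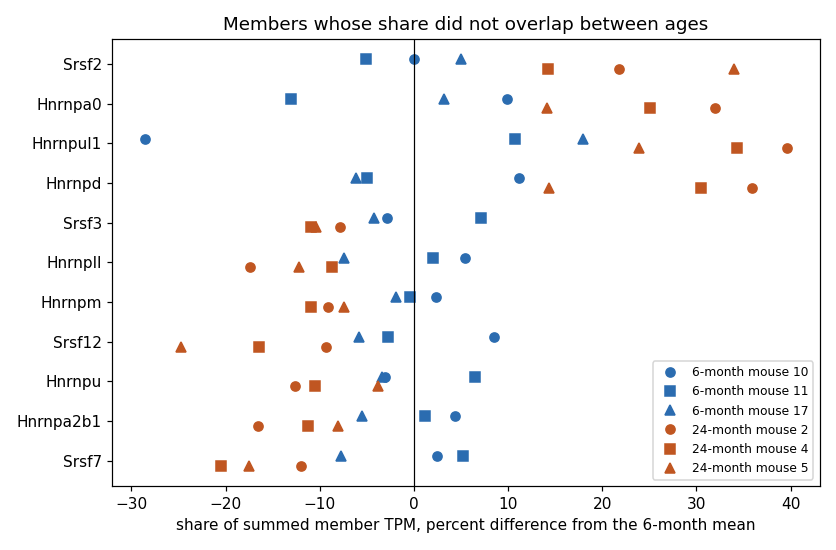
Share of the summed member TPM for the 11 members whose ages did not overlap, as percent difference from the 6-month mean of that member. Blue symbols are 6-month and orange symbols 24-month mice. Srsf2, Hnrnpa0, Hnrnpul1 and Hnrnpd lie to the right at 24 months and the other 7 to the left.

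Ratios within 9 pairs of paralogs (among them Srsf1 to Srsf9, Hnrnpa1 to Hnrnpa2b1, Hnrnph1 to Hnrnph2 and Hnrnpl to Hnrnpll) asked whether relatives shifted against each other. Only the ratio of Srsf3 to Srsf7 did not overlap between the ages. Its log2 value was -2.91 ± 0.07 at 6 months and -2.79 ± 0.05 at 24 months (SD, n = 3), so Srsf7 was the more abundant paralog at both ages, by a little less in older mice. The exact permutation p was 0.1, the smallest possible, before any adjustment over the 9 pairs.

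The kinases that act on SR proteins and other splicing genes were read from 7 lists of 124 genes, all tested. Clk4 and Clk1, nuclear kinases of SR proteins, were the genes of the 13 kinases and phosphatases that were lower at 10% FDR, with log2 fold changes of -0.63 (SE 0.14, adjusted p = 0.0526) and -0.34 (SE 0.11, adjusted p = 0.0874). Clk4 stood at 57.1, 61.97 and 48.2 TPM at 6 months and 34.6, 35.3 and 46.98 TPM at 24 months, so that the older mice were all below the younger ones. The median of this list was -0.11, above that of the well expressed class, and its sign turned with the scaling. Of the 19 SR-related and exon junction proteins, 3 were lower: Scaf4 (-0.37), Scaf8 (-0.30) and the splicing activator Tra2b (-0.32), with a list median of -0.22.

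Core spliceosome proteins, the longest list, were lower in 13 of 32 at 10% FDR, against 25.4% of the well expressed class. Of the list, 31 of 32 were fitted below 0, and of the class 8431 of 10028. The list median was -0.26, against -0.20 for the class, and -0.047 with scaling on the genes of at least 10 CPM. Sf3b3, part of the branch site complex, had a log2 fold change of -0.55 (SE 0.11, adjusted p = 0.0518). Snrnp200, the helicase that unwinds U4 from U6, had -0.56, and its partner Eftud2 -0.42. Of the 5 nuclear import receptors, 3 were lower, among them Tnpo3, the carrier of SR proteins (-0.42, adjusted p = 0.0575), and Kpna2 (-0.47, adjusted p = 0.0858), with a median of -0.41. That median was the value of Tnpo2, named here after its values were seen, which was not called (adjusted p = 0.359) and stood at 36.7, 15.9 and 15.8 TPM at 6 months and 18.5, 16.6 and 20.6 TPM at 24 months, high in mouse 10. Without mouse 10 the list median was -0.22, and that of the well expressed class -0.20.

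Relatives of the hnRNP proteins without the symbol were lower in 7 of 19 (Ralyl -0.37, Pcbp3 -0.33, Ptbp3 -0.46) and had a median of -0.21. Neuronal and tissue splicing regulators were lower in 6 of 24 (Celf1 -0.34, Khdrbs1 -0.38, Elavl2 -0.50) and had a median of -0.20. Factors of nonsense-mediated decay were lower in 2 of 12 (among them Smg8, -0.39), with a median of -0.18. Under this scaling, 36 of the 124 genes were called lower at 10% FDR and 0 higher, and 1 had an unadjusted p under 0.05 upward, Mbnl3, at 0.0369 to 0.151 TPM. The calls stand beside the 25.4% of the well expressed class. Over the 7 lists they numbered 3 lower and 7 higher with scaling on the genes of at least 10 CPM, and 3 lower and 6 higher with library totals. They numbered 0 without mouse 10, 11, 2 or 4, 15 lower without mouse 17, and 50 lower and 1 higher without mouse 5.

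**Figure D5:**
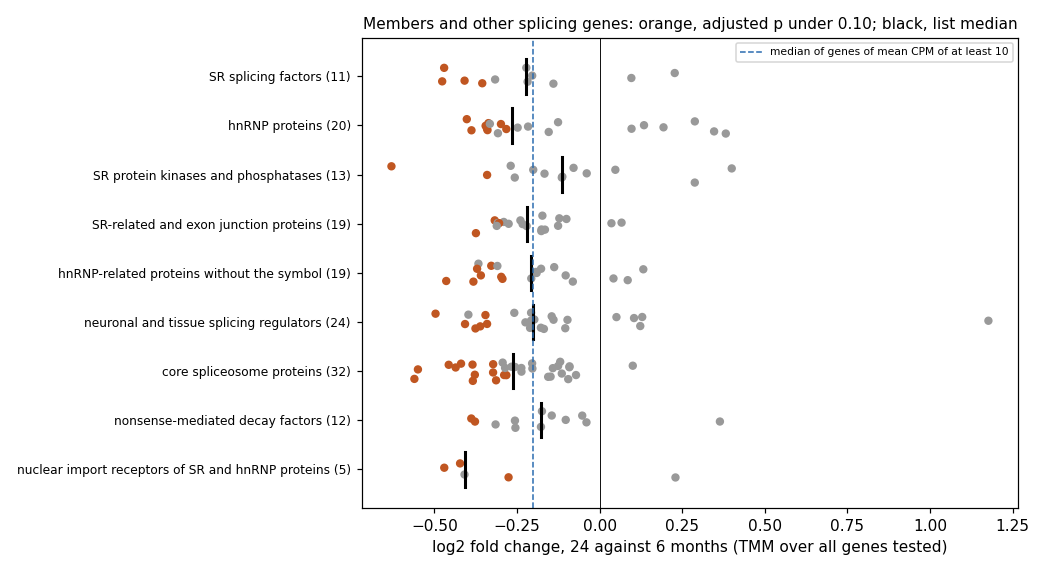
Log2 fold change, 24 against 6 months, of every gene in both groups and in the 7 lists, with TMM over all genes tested. Orange points have an adjusted p under 0.10, black bars are list medians, and the dashed line is the median of the genes of at least 10 CPM. The list medians lie close to that line except for the import receptors (-0.41, and -0.22 without mouse 10) and the kinases and phosphatases (-0.11).

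Markers of other cell types and regions were read on the scaling of the test, where the well expressed class had a median of -0.20. Of that class, 8431 of 10028 genes were fitted lower at 24 months. All 8 neuronal markers were fitted lower at 24 months, 2 of them called lower at 10% FDR (25.4% of the well expressed class was), with a median of -0.27. Astrocyte markers were fitted lower in 4 of 5 (median -0.16, 1 called higher), oligodendrocyte markers in 5 of 5 (-0.12), microglial markers in 3 of 5 (-0.073, 1 called lower and 1 higher) and striatal markers in 4 of 5 (-0.26, 1 called lower). Red blood cell markers were fitted lower in 5 of 5 (-0.36, 1 called lower), and 1 of 4 was fitted lower among those of endothelial cells (0.062), choroid plexus (0.35, 1 called higher) and meninges (0.060). Summed in CPM of the library total, a different scaling, the neuronal markers ran from 8874 to 10136 CPM at 6 months and from 7633 to 9640 CPM at 24 months. The 5 oligodendrocyte markers summed to 2089 to 3272 and 1289 to 3943 CPM, and the 5 astrocyte markers to 1609 to 1722 and 1773 to 1838 CPM. Microglial markers reached 254 to 272 and 272 to 302 CPM. The 5 striatal markers summed to 126 to 145 and 106 to 141 CPM, and no marker of any list was at 0 in a library. The part of cell composition in the changes of the splicing genes was not tested.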

How the data were processed

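Per the submitters' processing notes and the study's methods, the authors trimmed the reads with Trim Galore 0.6.4, mapped them to GRCm38 with STAR 2.7.3a and counted them on exons with featureCounts of Subread 2.0.0. They deposited counts and TPM per gene and mouse. The stated options share multi-mapping reads among positions, but all deposited counts were whole numbers. Families with near-identical copies are therefore uncertain. No stranded setting is stated.

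Counts were tested with edgeR 4.0.16 in R 4.3.3 (quasi-likelihood test, TMM, a minimum of 10 counts summed over the libraries, Benjamini-Hochberg adjustment over all 32905 genes, FDR of 1% as in the study and 10%). SE is the absolute log2 fold change divided by the square root of F. Alternatives used limma 3.58.1, DESeq2 1.42.0, other filters and scalings, and each mouse left out. The test was tried on simulated data. The rest was done with scipy 1.17.1, numpy 2.4.6 and pandas 2.3.3 under Python 3.11.15. The members and lists were chosen with earlier results of these data known.

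Values per mouse are given for the 4 most abundant members of each group, the 8 of smallest p, the 2 of lowest level and a paralog pair whose ratio did not overlap. Srsf10 is given outside this rule, and others are marked in the text. From each list, the 2 genes of smallest p and the one of largest change above 1 CPM are named, besides Tra2b and Mbnl3. A gene that the rule would name is not reported here. Sequences are from RefSeq and gene positions from GENCODE vM21, in which 55240 identifiers were found.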

Additional observations from a re-analysis of the deposited data

Results flagged for a closer look

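Pseudogene rows that carry the family names were left out of the members, and 2 of them had more counts at 24 months than at 6 months. Counts on Srsf3-ps were 6, 8 and 4 for the younger mice 10, 11 and 17, and 10, 15 and 12 for the older mice 2, 4 and 5, a 2.28-fold ratio of mean CPM. Those on Hnrnpa1l2-ps were 14, 31 and 14, and 49, 53 and 39, a 2.69-fold ratio. The remaining row, Hnrnpa1l2-ps2, had 0 counts in each younger mouse and 2, 2 and 0 in the older ones. Scaled by library totals, as in these ratios, 30.9% of all 32905 genes tested had all 24-month mice above all 6-month mice. The parent genes Srsf3 and Hnrnpa1 ran from 1904 to 2812 and from 987 to 1335 counts per mouse, and reads of near-identical copies can be placed on either row.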

How the results depend on the processing

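No paired analysis was possible because the mouse numbers of the ages share no value. Under every alternative, the 12 members called at 10% FDR kept a fitted change below 0. Their selection on low values in the same mice made this nearly certain. The number of calls depended on scaling, filter and mouse. Lower and higher calls numbered 1 and 1 with library totals, 1 and 2 with TMM on genes of at least 10 CPM, 2 and 0 with filterByExpr, 0 and 0 with a mean CPM of at least 1, and 0 and 0 with limma on log2(TPM + 1) or log2(TPM + 0.1). The likelihood ratio, exact and Wald tests called 1 member each at 1% FDR. At an unadjusted p under 0.05, lower and higher members numbered 4 and 5 with library totals, 2 and 6 with TMM on genes of at least 10 CPM, 10 and 1 with filterByExpr or limma, and 6 and 2 with a mean CPM of at least 1. Members without overlap numbered 8 lower and 4 higher, 6 and 4, 12 and 1 or (limma) 12 and 2, and 10 and 4 under these settings. The median log2 fold change of the members was -0.055, -0.036, -0.13 (filterByExpr), -0.13 (limma, both pseudocounts) and -0.092. With 1 mouse left out, calls at 10% FDR ranged from 0 to 17 lower and 0 to 2 higher, unadjusted calls from 8 to 19 lower and 0 to 3 higher, and members without overlap upward from 0 to 5. Among these alternatives, shares over other genes stand above for library totals, for TMM on genes of at least 10 CPM and for non-overlap on TPM. The other counts have no such background here. The cause of these moves was not tested.

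With library totals the signs turned for Hnrnpdl (0.064), Srsf9 (0.054), Hnrnph3 (0.038) and the medians of the kinase list (0.074) and the decay list (0.018). With a mean CPM of at least 1 they turned for Hnrnpdl (0.026), Srsf9 (0.018), Hnrnph3 (0.0018) and the kinase list (0.037). With TMM on genes of at least 10 CPM they turned for Srsf6 (0.0048), Hnrnpdl (0.083), Srsf9 (0.072), Hnrnph3 (0.057) and the kinase (0.093), hnRNP-related (0.0028), neuronal (0.011) and decay (0.037) lists. Without the 6-month mouse 10 they turned for Hnrnpul1, Hnrnpab and Srsf1, whose values with 1 mouse left out ran from -0.0073 to 0.36, from -0.077 to 0.88 and from -0.085 to 0.77.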

Other observations

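The annotation of the members bears on what a gene-level count holds. A transcript marked as a target of nonsense-mediated decay was annotated for 19 of the 31 members (61.3%), for 9 of 11 SR and 10 of 20 hnRNP genes, against 30.2% of the 9786 protein-coding genes of at least 10 CPM. A transcript with a retained intron was annotated for 71.0% of the members, against 62.3%. How much of each count came from such transcripts was not measured here, and the whole-gene counts of Srsf7 or Hnrnpa2b1 could hold both kinds.

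Marchf2, which shares exonic bases with Hnrnpm on the same strand, was noticed after its values were seen. Its counts were 684, 2363 and 3136 for the younger mice 10, 11 and 17 and 2648, 2982 and 2638 for the older ones. Among the younger mice, mouse 10 was lowest and mouse 17 highest, as in Hnrnpab, Srsf1 and Hnrnpl. Hnrnpm itself was nearly level among the younger mice and lower in every older one. The genes overlapping Srsf2, Mettl23 and Mfsd11, were steadier: Mettl23 ran from 446 to 553 counts in younger and from 391 to 413 in older mice, and Mfsd11 from 1199 to 1338 and from 1135 to 1286.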
